A study of Mus musculus with 2 samples.

Results

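The genes described here encode 2 systems by which cells read their neighbours: the ephrins with their Eph receptors, and the semaphorins with their plexin and neuropilin receptors. They were chosen by gene symbol alone, as probe sets that the platform annotation assigns to exactly 1 gene whose name is that of an ephrin, Eph receptor, semaphorin, plexin or neuropilin. This gave 52 genes of the 18193 with such a probe set, read by 123 probe sets. Of the 52, 28 encode ligands (8 ephrins and 20 semaphorins) and 24 encode receptors (13 Eph receptors, 9 plexins and 2 neuropilins). Ephb2 has no probe set named as its own in the annotation and was not analysed here.

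RNA came from embryoid bodies, balls of embryonic stem cells in early differentiation, formed in hanging drops from the feeder-free mouse embryonic stem cell line CGR8 (strain 129). One array held RNA of embryoid bodies given recombinant FGF10, a secreted fibroblast growth factor, at 100 ng/ml, and 1 array held RNA of embryoid bodies in differentiation medium alone. The labels place both samples at day 2, whereas the series' design text has embryoid bodies of 2 days treated and their RNA taken 24 h later. Neither group has a replicate array, so no p-value is given, variation between cultures is unknown, and every value describes this pair of arrays only.

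Ephrins and Eph receptors signal where cells touch, and the signal can run into the cell that carries the receptor and into the cell that carries the ephrin. In embryos they are known for cell sorting, tissue boundaries and the repulsion of growing axons. Semaphorins, some secreted and some held in the membrane, act through plexins, which control small GTPases and the cytoskeleton, and secreted class 3 semaphorins mostly need a neuropilin as the binding subunit. Both systems are used during gastrulation, heart and vessel formation as well as in the nervous system.

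Values are MAS5 signal, a linear brightness per probe set, and each gene is read from its brightest probe set. The log2 ratio is that of FGF10 over control after subtraction of the median over all kept probe sets, so a positive value means higher with FGF10 relative to the rest of the array. A gene counted as measured when the mean of its 2 signals was at or above 76.35, the median over all probe sets other than controls. This left 39 of the 52 genes. A gene was called higher or lower at 1.5-fold, a log2 ratio of 0.58. A technical SD of 0.267 for a single probe set was taken from the 2 brightest kept probe sets of the same gene (n = 5213 genes). It is the SD of the difference between their log2 ratios, divided by the square root of 2. It covers variation within these arrays only, including any between the transcripts that the probe sets read.

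With FGF10, 10 of the 39 measured guidance genes were higher by 1.5-fold or more, 1 was lower and 28 lay within 1.5-fold. The higher genes were Ephb6, Epha7, Plxna2, Sema5a, Sema6d, Epha1, Sema6c, Epha2, Plxnc1 and Sema3f, and the lower gene was Sema3c. These are 25.6% higher and 2.56% lower, against 5.41% higher and 4.86% lower over all 11122 measured genes. These shares are not matched for signal, and ratios of all genes spread more at low signal. A filter at the 75th percentile of signal kept 8 of the 39 guidance genes, against 6621 of the 11122. The median log2 ratio was 0.24 for the guidance genes and -0.027 for all genes, and 74.4% of the guidance genes had a ratio above 0, against 46.5% of all genes. At 2-fold, 4 guidance genes were higher (Ephb6, Epha7, Plxna2 and Sema5a) and 0 lower, where 1.32% of all genes were higher and 1.29% lower. In such bulk RNA, a change in the number of cells that express a gene and a change in the RNA per cell cannot be told apart.

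**Figure D1:**
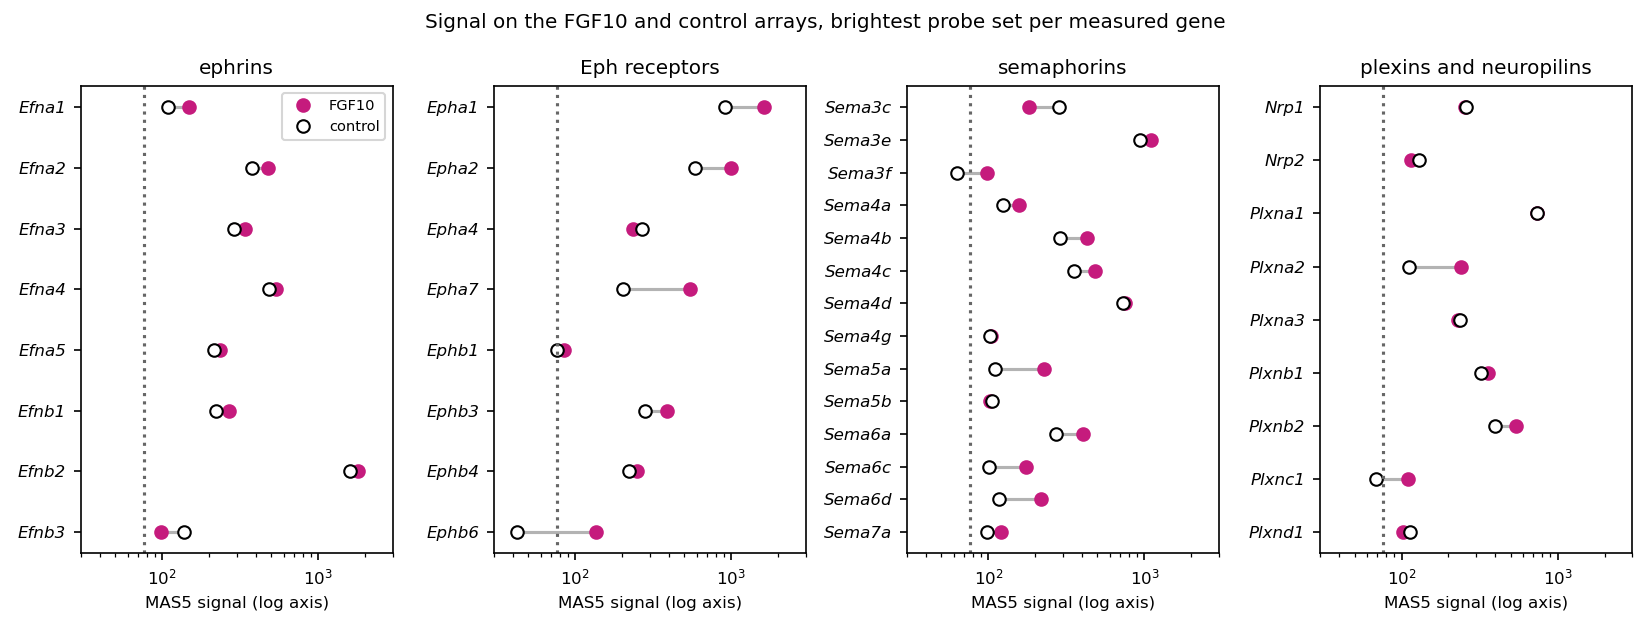
MAS5 signal (log axis) of the brightest probe set of each of the 39 measured genes on the FGF10 array (filled) and the control array (open), 1 array each, with the signal filter of 76.35 as a dotted line. The gap between the points is wide for Epha7, Ephb6, Plxna2 and Sema5a, and the ephrin points lie close together. Levels of different genes are not comparable, because each probe set has its own brightness.

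Of the 39, 3 were measured although 1 of their signals lay under the filter, and in all 3 it was the control signal: Ephb6, Plxnc1 and Sema3f. Such genes pass the filter through the array on which they are high, so their being higher is partly built into their selection. The other 36 had both signals at or above the filter, and 7 of these were 1.5-fold higher and 1 lower. Over all genes with both signals at or above the filter, 4.58% were higher and 3.62% lower. The measured genes nearest the filter were Sema3f, with signals of 97.7 (FGF10) and 62.7 (control), and Ephb1, with 84.7 and 76.9. Just outside it lay Sema4f, with 66.6 (FGF10) and 72.6 (control), and Plxnb3, with 95.8 and 22.6.

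Among the 11 genes past 1.5-fold, 7 had a second kept probe set, and in 5 of these it was itself at least 1.5-fold different in the same direction. These 5 genes were Epha1, Epha7, Plxna2 and Sema5a, all higher, and Sema3c, lower. For Sema5a and Sema3c the second probe set passed the filter only through the array on which it is high. Its agreement is therefore partly built into the filter. The stretch before the start of transcription is shown for the 2 receptor genes among these 5 with an ephrin ligand and for the 1 gene of opposite direction. Each sequence is the 250 bases upstream of the RefSeq gene start on build GRCm38.p6, 5′ to 3′ on the strand of the gene. For Epha7, which has 2 starts listed, the first is used.
Epha1, chr6:42373269-42373518, minus strand: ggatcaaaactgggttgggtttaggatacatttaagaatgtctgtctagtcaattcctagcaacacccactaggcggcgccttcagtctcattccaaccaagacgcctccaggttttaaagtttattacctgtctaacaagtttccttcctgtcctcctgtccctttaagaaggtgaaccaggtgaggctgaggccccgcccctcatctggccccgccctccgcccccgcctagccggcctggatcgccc
Epha7, chr4:28812881-28813130, plus strand: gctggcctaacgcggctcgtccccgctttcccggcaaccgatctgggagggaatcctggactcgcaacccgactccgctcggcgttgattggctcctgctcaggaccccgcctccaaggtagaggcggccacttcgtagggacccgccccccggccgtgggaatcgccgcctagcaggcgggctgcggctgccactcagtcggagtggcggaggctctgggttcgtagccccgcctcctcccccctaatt
Sema3c, chr5:17574566-17574815, plus strand: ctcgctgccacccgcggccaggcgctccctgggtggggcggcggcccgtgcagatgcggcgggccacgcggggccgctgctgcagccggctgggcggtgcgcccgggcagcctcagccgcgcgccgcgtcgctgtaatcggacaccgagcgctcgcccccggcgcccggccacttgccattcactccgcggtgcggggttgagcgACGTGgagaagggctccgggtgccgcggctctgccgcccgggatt

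Capitals mark matches to any of 4 short motifs, searched on both strands: ACGTG, the core of the hypoxia response element, AGGTGT, a core of T-box sites, CTTTGAT, a core of TCF and LEF sites, and CCGGAA, a core of ETS sites. The capitals in Sema3c are 1 copy of ACGTG, and these letters do not occur in the windows of Epha1 and Epha7. Of the 46 guidance genes with a promoter in the RefSeq table, 10 (21.7%) hold ACGTG, against 16.6% of all 32851 windows of this length. AGGTGT is in 13.0% of the guidance genes against 11.8% of all windows, CTTTGAT in 2.17% against 3.21%, and CCGGAA in 10.9% against 12.03%. A gene with several starts was counted once if any window matched, while the share over all windows counts each start. A match is a run of letters, not a site shown to be bound.

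Ephrins, the ligands of Eph receptors, differed little between the arrays. All 8 ephrin genes were measured, and 0 were past 1.5-fold in either direction, where 5.41% of all genes were higher and 4.86% lower. The ephrin log2 ratios ran from -0.51 to 0.43 with a median of 0.16, and 7 of 8 were above 0. The 5 A ephrins, which are attached to the membrane by a lipid anchor, all had ratios above 0. Efna1, a ligand of Epha2, had a signal of 149.6 on the FGF10 array and 108.6 on the control array, a log2 ratio of 0.43. Efna2 had 480 with FGF10 and 378.9 in control (0.31), and its other kept probe set gave nearly the same ratio (0.28). Both ligands were thus slightly higher with FGF10, by less than 1.5-fold. Efna3 had signals of 340.8 (FGF10) and 289.1 (control), a ratio of 0.20, but a second probe set pointed the other way at -0.47. Efna4 had 538.5 with FGF10 and 485.2 in control (0.12). Efna5, known for the mapping of retinal axons, had 235.1 with FGF10 and 215.1 in control (0.094). These last 3 ratios are smaller than the technical SD.

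The 3 B ephrins cross the membrane and carry a cytoplasmic tail that signals in the ligand's own cell. Efnb2, a ligand of Ephb4 and a marker of arteries in older embryos, had signals of 1788.2 (FGF10) and 1604.7 (control), a ratio of 0.12. Its other 3 probe sets gave 0.25, 0.25 and 0.76, so that all 4 were above 0 and 1 passed 1.5-fold. Efnb1 had 269 with FGF10 and 222.7 in control (0.24), and its other probe sets stood on opposite sides of 0, at -0.29 and 0.15. Efnb3, a repellent at the midline of the spinal cord, was the 1 ephrin with a lower signal, 98.6 with FGF10 and 137.2 in control (-0.51), which is short of 1.5-fold.

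Eph receptors are receptor tyrosine kinases, and 4 of the 8 measured genes of the family passed 1.5-fold, all upward. Of all measured genes, 5.41% were higher by that much and 4.86% lower. The family has 13 genes on the array, and the median log2 ratio of the 8 was 0.58. The A receptors Epha1, Epha2 and Epha7 and the B receptor Ephb6 were the higher ones. Of these, Ephb6 passed the filter only through its FGF10 signal. Epha7 had signals of 542.6 (FGF10) and 200.8 (control), a log2 ratio of 1.40 or 2.64-fold. Its other kept probe sets read 245.8 with FGF10 and 98.9 in control (1.28), and 199.3 with FGF10 and 126.7 in control (0.62). All 3 passed 1.5-fold, and Epha7 ranked 58 from the top among the 11122 measured genes.

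Epha1 had signals of 1628.5 (FGF10) and 916.6 (control), a ratio of 0.79 or 1.73-fold. A second probe set read 340.5 with FGF10 and 150.2 in control (1.15), whereas the dimmest kept one, close to the filter, read 82.6 with FGF10 and 78.3 in control (0.043). Epha1 was therefore higher on its 2 brighter probe sets and level on the dimmest. Epha2, the main receptor of ephrin-A1 and a gene expressed in the mouse streak and node, is read by 1 probe set. Its signals were 990 with FGF10 and 581.6 in control, a ratio of 0.73 or 1.66-fold. Epha4, known for boundaries between hindbrain segments and somites, did not follow them: its signals were 234.4 (FGF10) and 266.3 (control), a ratio of -0.22. Its other kept probe sets gave 0.38 and -0.52, so its direction depends on the probe set.

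Among B receptors, Ephb6 had the highest ratio of all measured guidance genes, on a control signal too dim to set its size. It read 136.4 with FGF10 and 42.1 in control, a log2 ratio of 1.66, on its only probe set. With the control signal raised to the filter value the ratio was 0.80, still past 1.5-fold. Ephb6 is a receptor whose kinase domain is inactive. Ephb3 had signals of 385.3 (FGF10) and 281.5 (control), a ratio of 0.42. Ephb4, known from veins, had 249.2 with FGF10 and 219.6 in control (0.15), and Ephb1 had 84.7 with FGF10 and 76.9 in control (0.11). These 3 B receptors were within 1.5-fold, each read by 1 kept probe set. The 5 receptors below the filter, Epha3, Epha5, Epha6, Epha8 and Epha10, had signals between 11.7 and 76.3 on either array, too dim for a ratio to be read.

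Semaphorins held both directions. Of 20 genes 14 were measured, and their median log2 ratio was 0.37. Sema5a, Sema6d, Sema6c and Sema3f passed 1.5-fold upward and Sema3c downward, where 5.41% of all genes passed it upward and 4.86% downward. Class 6, whose members span the membrane and bind A plexins, lay on 1 side: the brightest probe sets of its 3 measured members had ratios between 0.55 and 0.84. Sema6d, a ligand of Plxna1 known from heart development in chick, had signals of 215.8 (FGF10) and 117.6 (control), a ratio of 0.84. Sema6c had 175.2 with FGF10 and 101.6 in control (0.75), but its second probe set gave -0.34. Sema6a, a ligand of Plxna2, had 406.5 with FGF10 and 270.5 in control (0.55), and its other probe sets gave 0.16 and -0.77. Sema6d was thus the 1 class 6 gene with no kept probe set against it, and it had only 1.

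Class 5 semaphorins carry thrombospondin repeats outside the cell, and their 2 genes differed from each other. Sema5a had signals of 226.9 (FGF10) and 110.3 (control), a log2 ratio of 1.01. Its second kept probe set read 94.9 with FGF10 and 58.5 in control (0.66), past 1.5-fold in the same direction. That probe set passed the filter only through its FGF10 signal, so this agreement is partly built into the filter. Sema5b read 102.1 with FGF10 and 104.7 in control (-0.071).

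Class 3 semaphorins are secreted. Sema3c, a ligand known for the septation of the cardiac outflow tract, was the 1 guidance gene at least 1.5-fold lower. Its signals were 182.5 with FGF10 and 285.3 in control, a log2 ratio of -0.68, which is 1.60-fold lower. The second probe set read 63.8 with FGF10 and 127.4 in control (-1.03), so both probe sets were past the threshold downward. That second probe set passed the filter only through its control signal, so its being lower is partly built into its selection. Sema3e, which binds Plxnd1 without a neuropilin, had 1097 with FGF10 and 930.5 in control (0.20). Its 4 probe sets were all above 0, between 0.085 and 0.59. Sema3f, a ligand of Nrp2, had 97.7 with FGF10 and 62.7 in control (0.61), and with the control signal raised to the filter value it fell short of 1.5-fold at 0.32.

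Class 4 semaphorins, also membrane proteins, were all within 1.5-fold. Sema4b came nearest to the threshold, with signals of 431.6 (FGF10) and 287.2 (control), a ratio of 0.55. Sema4c, a ligand of Plxnb2, had 483.7 with FGF10 and 353.6 in control (0.42), and Sema4a had 157.8 with FGF10 and 123.4 in control (0.32). Each of these 3 was read by 1 kept probe set. Sema4d, the ligand of Plxnb1, had 755.1 with FGF10 and 733.3 in control (0.0080), with 0.30 on its second probe set. Sema4g was level too, with 104 on the FGF10 array and 102.4 on the control array (-0.012). Sema7a, the lipid-anchored ligand of Plxnc1 and of integrins, had 120.8 with FGF10 and 98.3 in control (0.26). The 6 semaphorins under the filter were Sema3a, Sema3b, Sema3d, Sema3g, Sema4f and Sema6b, with signals from 5.3 to 96.

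**Figure D2:**
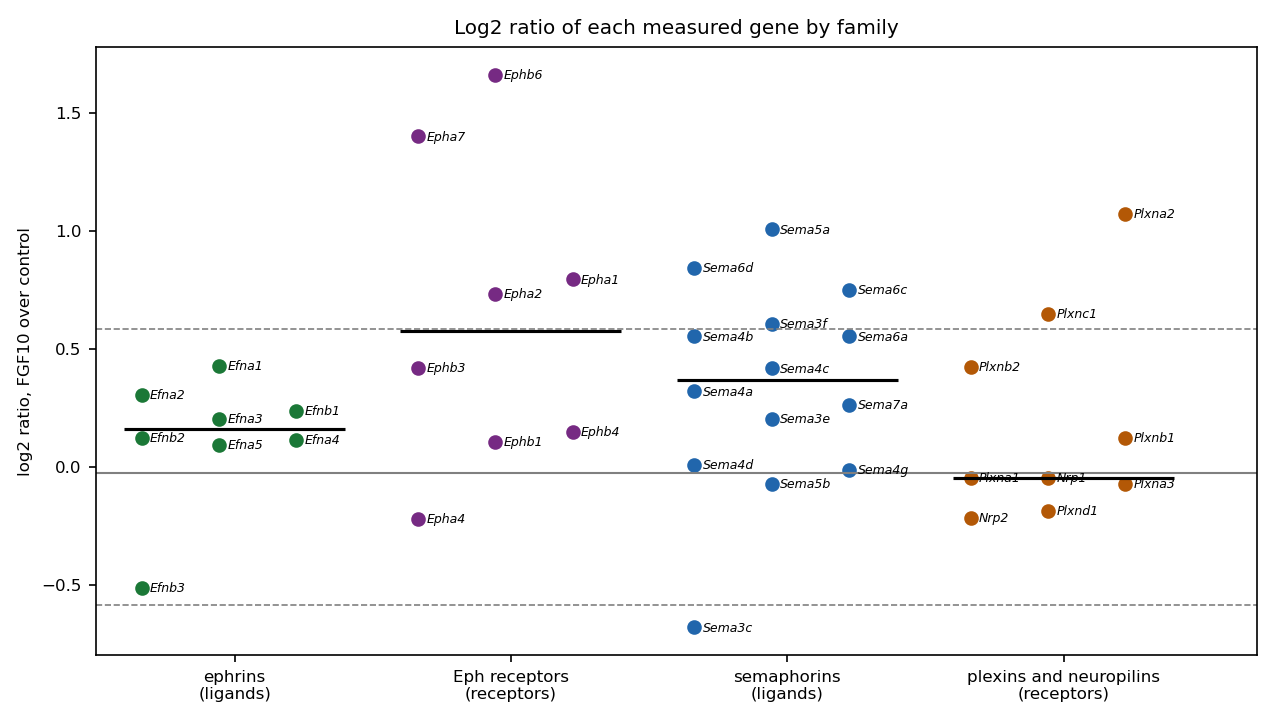
Log2 ratio (FGF10 over control) of each of the 39 measured genes, 1 point per gene from its brightest probe set, by family. Black bars are family medians (0.16 for ephrins, 0.58 for Eph receptors, 0.37 for semaphorins and -0.044 for plexins and neuropilins), the grey line is the median of all genes (-0.027) and dashed lines mark 1.5-fold. No ephrin passes 1.5-fold, whereas 4 Eph receptors do.

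Plexins and neuropilins, the receptors of semaphorins, were mostly level apart from Plxna2. Of 11 genes 9 were measured, and 2 passed 1.5-fold upward and 0 downward, where 5.41% and 4.86% of all genes did. The median log2 ratio of the 9 was -0.044. Plxna2, a receptor of Sema6a and, with neuropilins, of class 3 semaphorins, had signals of 240 (FGF10) and 111.4 (control). That is a ratio of 1.07 or 2.10-fold. Its other kept probe sets read 139.7 with FGF10 and 86.1 in control (0.66), and 96.9 with FGF10 and 66.8 in control (0.50). All 3 were higher with FGF10, and 2 of them passed 1.5-fold. The dimmest of the 3 passed the filter only through its FGF10 signal, so its being higher is partly built into its selection. Plxnc1 had 109.9 with FGF10 and 68.4 in control (0.65), while its second probe set, of nearly the same brightness, read 59.1 with FGF10 and 97.3 in control (-0.75). The direction of Plxnc1 is therefore not settled by these arrays.

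The other A plexins were level. Plxna1, a receptor of Sema6d, had signals of 737.6 (FGF10) and 743.2 (control), a ratio of -0.045. Plxna3 had 230.6 with FGF10 and 236.5 in control (-0.071), with 0.15 on its second probe set. Of the B plexins, Plxnb2 had 544.3 with FGF10 and 396.6 in control (0.42), and Plxnb1 had 358.6 with FGF10 and 321.5 in control (0.12), with 0.18 on its second probe set. Plxnd1, known from vessel patterning, had 101.8 with FGF10 and 113.2 in control (-0.19). The neuropilins, which also bind vascular endothelial growth factors, were level or slightly lower. Nrp1 had 257 with FGF10 and 258.8 in control (-0.044). Nrp2 had 115 with FGF10 and 130.4 in control (-0.22), with -0.016 on its second kept probe set. Plxna4 and Plxnb3 were below the filter.

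Ligands were compared with receptors over the measured genes. Of 22 ligands, 4 passed 1.5-fold upward and 1 downward, and of 17 receptors 6 passed it upward and 0 downward. Over all genes 5.41% were higher and 4.86% lower. The higher genes include Sema3f among the ligands, and Ephb6 and Plxnc1 among the receptors, which passed the filter only through their FGF10 signal. The median log2 ratio was 0.25 for ligands and 0.15 for receptors, a difference of 0.10 (ligands minus receptors). That difference is smaller than the technical SD of a single gene, though a median over many genes has a smaller technical error. The direction of the difference turned when means were used, 0.26 for ligands and 0.40 for receptors, since the receptors held a few high ratios among many near 0. Within the systems the order was opposite. The ephrin median minus that of Eph receptors was -0.41, and the semaphorin median minus that of plexins and neuropilins was 0.41. With means, semaphorins stood at 0.34 and plexins and neuropilins at 0.19. With the filter at the 75th percentile of signal, which left 2 genes in each, their order turned, at 0.14 and 0.23. The order of ephrins and Eph receptors was kept in both settings. No test was made of these differences, because genes on 1 pair of arrays are not replicates.

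In 6 of 9 pairs of a ligand and its known receptor, both partners had a log2 ratio above 0. Without regard to pairing, 81.8% of the 22 measured ligands and 64.7% of the 17 measured receptors were above 0. The count of pairs therefore says little about pairing. Sema6a and Plxna2 stood at 0.55 and 1.07, Efna1 and Epha2 at 0.43 and 0.73, and Sema4c and Plxnb2 both at 0.42. Smaller values were those of Efnb2 and Ephb4, at 0.12 and 0.15, and of Sema4d and Plxnb1, at 0.0080 and 0.12. Sema7a and Plxnc1 stood at 0.26 and 0.65, where the receptor's value depends on the probe set. In the remaining 3 pairs the receptor was below 0: Sema6d and Plxna1 stood at 0.84 and -0.045, Sema3f and Nrp2 at 0.61 and -0.22, and Sema3e and Plxnd1 at 0.20 and -0.19. No pair had both partners past 1.5-fold. These pairs were picked from general knowledge after the values were known, and none of them includes Sema3c, the lower gene.

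**Figure D3:**
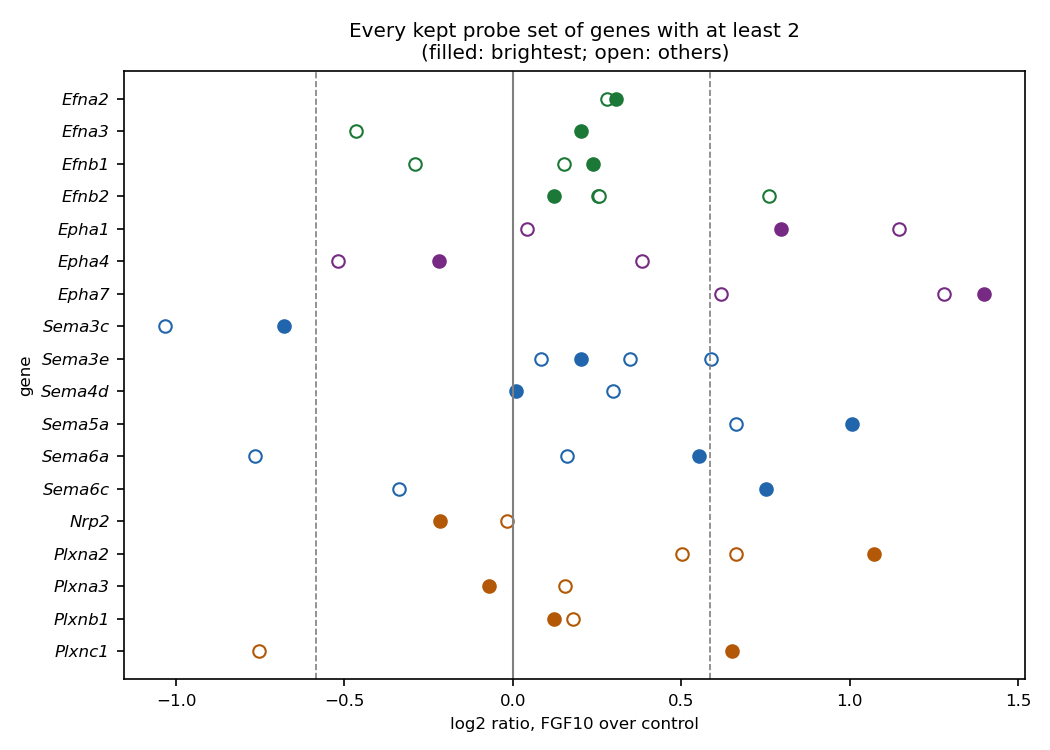
Log2 ratio (FGF10 over control) of every kept probe set of the 18 guidance genes with at least 2, the brightest filled and the others open, with dashed lines at 1.5-fold. All probe sets of Epha7, Plxna2, Sema5a and Sema3c lie on 1 side of 0, and those of Epha4, Sema6a, Sema6c and Plxnc1 lie on both.

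Probe sets of a gene can read different transcripts or fail differently, so they give a check within the arrays. Among the 18 measured guidance genes with 2 or more kept probe sets, 11 had all their kept probe sets on the same side of 0. On the 2 brightest, 12 of 18 (66.7%) had the same sign, against 65.7% of all 5213 genes with 2 kept probe sets. Epha2, Ephb6, Sema6d and Sema3f, all past 1.5-fold, had only 1 kept probe set and no such check.

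**Figure D4:**
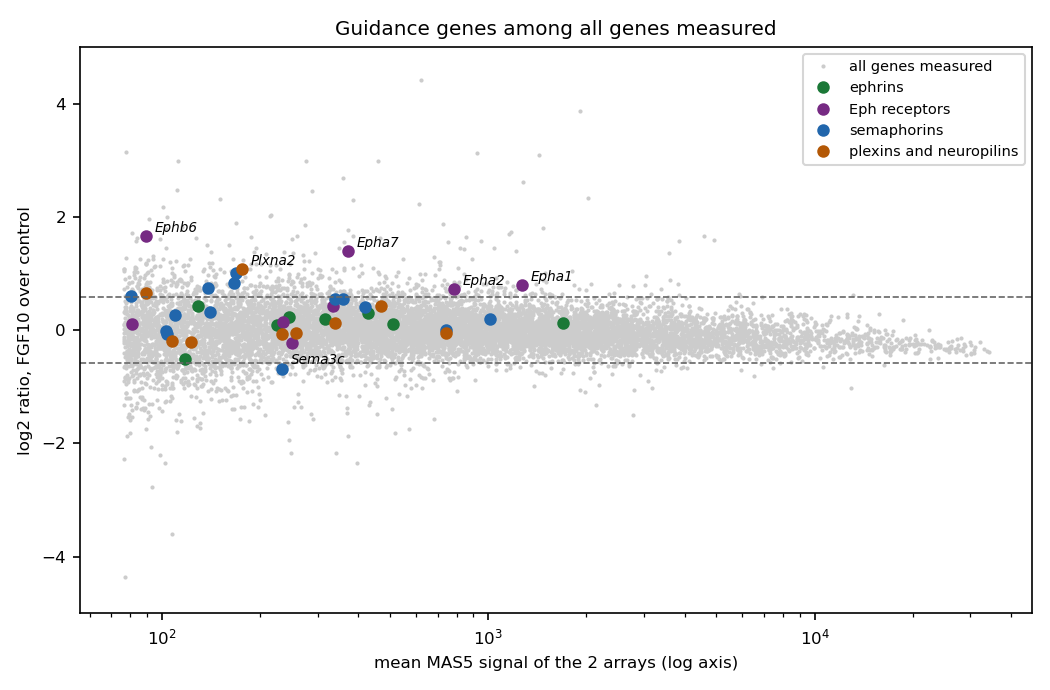
Log2 ratio (FGF10 over control) against the mean MAS5 signal of the 2 arrays (log axis) for all 11122 measured genes (grey) and the guidance genes (coloured by family), with dashed lines at 1.5-fold. Ratios of all genes spread more at low signal, where Ephb6 lies, and Epha7, Epha2 and Epha1 lie above the upper dashed line at higher signal.

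The partners and effectors of these receptors were read from 4 further lists. Slit and netrin genes form the remaining classical guidance systems, with Robo receptors for Slits and Dcc, Neo1 and Unc5 receptors for netrins. Of 25 genes only 10 were measured, and 5 of these passed 1.5-fold upward and 0 downward, where 5.41% and 4.86% of all genes did. Their median log2 ratio was 0.48. Slit2 had signals of 194.8 (FGF10) and 83.5 (control), a ratio of 1.19, and Slit3 had 622.4 with FGF10 and 298 in control (1.03). Their receptor Robo1 had 883.2 with FGF10 and 570.4 in control (0.60). Ntn1, netrin-1, had 328.3 with FGF10 and 162.7 in control (0.98), and its receptor Dcc had 113.2 with FGF10 and 66.7 in control (0.73). These 5 genes were each read by 1 kept probe set. Dcc was measured only through its FGF10 signal, and with the control signal raised to the filter value its ratio was 0.53, short of 1.5-fold. The other Slit gene on the array, Slit1, was below the filter, with 52.6 (FGF10) and 43.7 (control). The netrin receptor Neo1 had 928.1 with FGF10 and 700.8 in control (0.37), within 1.5-fold, and its 4 kept probe sets ran from -0.20 to 1.12. The netrin receptor Unc5b read 863 with FGF10 and 1256.1 in control (-0.58, just short of 1.5-fold), with 0.77 on its other kept probe set. The list also held Rgma, Rgmb and Flrt3, which were level on their brightest probe sets, at -0.034, -0.00094 and -0.088.

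Co-receptors and other binding partners of semaphorins, plexins and neuropilins were mixed, with 1 of 13 measured genes higher, 1 lower and a median of 0.16. Of all genes, 5.41% were higher and 4.86% lower. Flt1, a receptor for vascular endothelial growth factor that binds neuropilins, had 351.1 with FGF10 and 182.6 in control (0.91), with all 4 kept probe sets past 1.5-fold. Pgf, which encodes a ligand of Flt1 and of neuropilins, had 63.9 with FGF10 and 107.9 in control (-0.79). Pgf was measured only through its control signal, and with the FGF10 signal raised to the filter value its ratio was -0.53, short of 1.5-fold. Plexin and semaphorin effectors, such as Rnd GTPases, collapsin response mediators and Mical enzymes, had 0 of 22 measured genes past 1.5-fold and a median of 0.11. Among Eph and ephrin effectors and proteases 2 of 34 passed it upward and 1 downward, and the median was 0.12. Grip1, an adaptor that binds B ephrins, had 200.7 with FGF10 and 122.2 in control (0.68), with 0.29 on its other kept probe set. Itsn1, an exchange factor for Cdc42, had 664.1 with FGF10 and 426.7 in control (0.60). The probe sets of Itsn1 disagreed, from -0.84 to 0.67. Src, a kinase used in Eph and ephrin signalling, had 237.3 with FGF10 and 394.6 in control (-0.77) on its brightest probe set and -0.040 on the other. The shares past 1.5-fold upward in the 2 effector lists were thus 0% and 5.88%, beside the 5.41% of all genes.

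Markers of cell types moved beside these genes. Over all measured genes, 5.41% were higher and 4.86% lower at 1.5-fold, and 1.32% higher and 1.29% lower at 2-fold. Each sum of signals given here is weighted to its brightest markers, and levels of different genes are not comparable. The 6 markers of primitive streak and mesendoderm were all at least 2-fold higher, with summed signals of 14041.7 (FGF10) and 2816.3 (control). Of 7 markers of visceral endoderm, an extraembryonic tissue, 5 passed 1.5-fold downward and 0 upward, with sums of 5175.3 (FGF10) and 7993.7 (control). The stem cell markers Pou5f1, Nanog and Sox2 were detected on both arrays and within 1.5-fold, and of 6 pluripotency markers 2, Utf1 and Zfp42, were lower, with sums of 30337.1 (FGF10) and 30647 (control). Of 7 endothelial and blood markers 4 were below the filter, Pecam1, Cdh5, Tie1 and Gata1, and the 3 measured ones, Eng, Tek and Tal1, were lower, with sums of 402.5 (FGF10) and 669.5 (control). Tek and Tal1 passed the filter only through their control signals, so their being lower is partly built into their selection. Of 7 neural markers 5 were measured and 1, Pax6, was lower, though it too passed the filter only through its control signal, with sums of 1241.4 (FGF10) and 1167.3 (control). Neural crest markers had 2 of 4 measured, both within 1.5-fold, with sums of 634.5 (FGF10) and 728.2 (control). Of 7 fibroblast markers 5 were below the filter and 1 of the others, Thy1, was lower, with sums of 368.8 (FGF10) and 506.2 (control). The part of such cell types in the guidance gene values was not tested.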

How the data were processed

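Biotin-labelled total RNA of embryoid bodies was read on Affymetrix arrays, 1 per group, with groups taken from the agent given in the labels. The deposited intensity values are linear signals made with MAS5, according to the submitters' processing notes. Its version and settings are not given in the sources used here. With 2% of values trimmed at each end, the mean was 500.003 on both arrays, the form left by scaling to a common target, so a difference in total RNA is not visible. Array medians were 77.9 (FGF10) and 75.7 (control), and 0 columns were left unused. The number of arrays limits the precision.

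Of 45101 probe sets, 45037 are not controls. Of these 34945 had 1 gene in the platform annotation, 932 several and 9160 none listed. All 52 guidance genes matched the RefSeq gene table of GRCm38.p6 by gene ID. The log2 ratio had no offset, and 0.034 (the median over 22524 kept probe sets) was subtracted. Every measured guidance gene is named, with genes past 1.5-fold from the other lists. Promoters were found for 46 of 52 genes in the RefSeq table. The genes and lists were chosen with earlier results of these data known. No test was made, as each group had 1 array. The computation was tested on simulated data, with Python 3.11.15, numpy 2.4.6, pandas 2.3.3 and statsmodels 0.14.6. The 14 alternatives are given in the closing section.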

Additional observations from a re-analysis of the deposited data

Results flagged for a closer look

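Plxnb3, a B plexin gene left out because its mean signal lay under the filter, had a signal of 95.8 on the FGF10 array, above the filter value of 76.35, and 22.6 on the control array. It was singled out because this signal lies outside the genes compared. Its other probe set read 15.1 with FGF10 and 16 in control, so the 2 probe sets do not show the same difference. Sema6b, also left out, was in the same position with the opposite direction, with 13.1 on the FGF10 array and 96 on the control array.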

How the results depend on the processing

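No paired analysis was possible because each group has 1 array. Medians and ratios were read as moved when they shifted by more than their technical error, and counts when they changed by over 1.5 times. No centring, an offset at the 25th percentile and loess on signal moved no median and no count of the guidance genes in this sense, though the offset took Ephb6 to 1.29. Quantile normalization gave an overall median of 0.18, the mean over probe sets 0.15, and the mean over genes 0.32. Without the signal filter all 52 genes gave a median of 0.16, with 13 genes higher and 6 lower (13.8% and 15.9% over all genes), 0.43 for Eph receptors and 0.18 for semaphorins. At the 75th percentile filter 8 genes were left, 2 higher and 0 lower (3.56% and 1.42% over all genes). The medians were then 0.16 for ligands, 0.61 for receptors (difference -0.46), 0.80 for Eph receptors, 0.14 for semaphorins and 0.23 for plexins and neuropilins. With means over genes, the difference was -0.14, receptors stood at 0.40, and plexins and neuropilins at 0.19. The Eph receptor median was 0.42 with the filter on both arrays and 0.42 without Ephb6, the most extreme gene. Second brightest probe sets gave 2 lower genes (5.75% over all genes), and a 2-fold threshold 4 higher and 0 lower (1.32% and 1.29%). Plxnc1 turned to -0.052 on the mean of its probe sets and -0.75 on the second, and Sema6c to -0.34 on the second. Sema3f and Plxnc1 fell short of 1.5-fold with the offset or with dim signals raised to the filter value, as did Dcc among the other lists. Epha1, Epha2, Epha7, Ephb6, Plxna2, Sema5a, Sema6d and Sema3c stayed past 1.5-fold, in the same direction, under every processing alternative that gave them a value. Part of this was fixed in advance. Epha2, Ephb6 and Sema6d had 1 kept probe set each, so alternatives that use other probe sets could not change them. Raising dim signals could change only Ephb6 among these genes, and the filter on both arrays gave Ephb6 no value. For the 4 other pathway lists together, 8 genes were higher and 2 lower of 79, against 5.41% and 4.86% over all genes. Of the same 79, 5 were higher with the offset (4.44% over all genes), and 2 higher and 0 lower at 2-fold (1.32% and 1.29%). Without the filter, 14 of 108 were higher and 12 lower, where 13.8% and 15.9% of all genes were. At the 75th percentile, 5 of 49 were higher and 0 lower, where 3.56% and 1.42% of all genes were. The lower count was 1 with the filter on both arrays, with dim signals raised, with the mean over probe sets and without _x_at and _s_at probe sets. In these settings between 3.62% and 4.71% of all genes were lower. Where an alternative changes which genes are measured, its own construction changes the values. For the rest the cause was not tested.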
